A study of Drosophila melanogaster with 12 samples.

Results

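Serine proteases are enzymes that cut other proteins at chosen bonds, and insects carry a large family of secreted ones together with homologs that keep the protease fold but have lost part of the active site. In Drosophila, a chain of them acts in the haemolymph during immune responses. Each enzyme of the chain is made as an inactive precursor and is cut by the one before it, and the last cuts Spätzle, the ligand of the receptor Toll. The 7 genes described here are CG33460, CG4793 and Sp212, which RefSeq names as members of the protease and protease homolog family, and modSP, grass, psh and SPE, which encode proteases of the Toll cascade. They were taken by gene name from 23882 features of an RNA-seq count table. CG33460, CG4793 and Sp212 were chosen by their counts, which were lower in the libraries with dsRNA against an acetyltransferase than in the control libraries. The other 4 were added for comparison by their role. The values against the control that chose the first 3 genes are therefore given as a description, with no test.

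The libraries were made from Drosophila Kc167 (Kc) cells, a line derived from embryos, after 5 days of double-stranded RNA (dsRNA), which directs the destruction of mRNA of the same sequence. There were 4 groups of 3 replicates, with dsRNA against dGcn5, Elp3, nej (the Drosophila CBP) or yellow. The first 3 encode acetyltransferases, and yellow, a pigmentation gene, was the control. The study concerned the repair of heterochromatic DNA breaks, and the RNA-seq asked whether depletion of dGcn5 alters the expression of repair and cell cycle genes. All groups were grown in CCM3 medium and differ, as far as the labels say, only in the dsRNA. Nothing in the labels says that replicates are separate cultures, so that p-values measure the spread between these libraries, which may be technical.

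Libraries held between 19102102 and 23198850 counts. The dsRNA targets were examined first. Gcn5 measured 40.1 ± 10.3 CPM in dGcn5 libraries and 138 ± 11.1 CPM in yellow libraries (SD, n = 3 each), where CPM is a count scaled by the library size after TMM normalization. Elp3 measured 3235 ± 1178 CPM in the 3 libraries with its label and 52.5 ± 6.46 CPM in yellow libraries (SD, n = 3 each), not the drop that dsRNA against it would give. It averaged 43.65 CPM in dGcn5 libraries and 42.7 CPM in those labelled nej. The nej gene measured 1417 ± 1595 CPM in the 3 libraries with its label and 148 ± 88.2 CPM in yellow libraries (SD, n = 3 each), again not a drop. It averaged 90.0 CPM in dGcn5 libraries and 147 CPM in those labelled Elp3. Each gene was thus highest in the libraries with its own label, and no depletion of it was seen in these counts. Why was not tested. Both groups are therefore named by their labels only, as libraries labelled Elp3 or nej. The target of the control, y, averaged 23.1 to 27.3 CPM in the other groups and 23.1 ± 18.2 CPM in yellow libraries (SD, n = 3), and so gives no check of the control label. Yellow replicate 3 stood apart from the other yellow libraries. With each doubling of exon length, log2 CPM relative to the average library changed by -0.33 there, and by 0.13 and 0.15 in yellow replicates 1 and 2. Such trends were not particular to the yellow libraries. The change was -0.34 in Elp3 replicate 1, -0.21 in dGcn5 replicate 2 and 0.23 in nej replicate 2. Of the 8 hemocyte markers listed, all passed the filter on low counts in every comparison, and the 5 digestive gut markers (trypsin and Jonah protease genes) together had 0 to 5 counts per library. The polyadenylated RNA thus held hemocyte transcripts and next to none from digestive proteases of the gut.

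CG33460 (FBgn0053460) lies on chromosome 2R of BDGP6.32 from 15694092 to 15695232, on the forward strand, with 946 bp of exons and a protein of 275 residues. RefSeq also lists it as SP41 and SPH41, where SPH stands for a serine protease homolog. CG4793 (FBgn0028514) lies on chromosome 2L from 15923395 to 15926287, on the forward strand, with 2832 bp of exons and 910 residues. Its other names, cSPH128 and SPH208, place it among the homologs. Sp212 (FBgn0053329) lies on chromosome 3R from 14222074 to 14224155, on the reverse strand, with 1681 bp of exons and 516 residues. The exons of these genes overlap no other feature of the table.

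CG33460 had 6, 14 and 7 counts in dGcn5 libraries, 21, 17 and 4 counts in the libraries labelled Elp3 and 2, 0 and 7 counts in the libraries labelled nej, against 92, 108 and 42 counts in yellow libraries. Each library of the first 3 groups lay below each yellow library. The lowest yellow library was replicate 3, at 1.85 CPM, and the highest of the other libraries was labelled Elp3, replicate 1, at 1.12 CPM. CG33460 averaged 0.427 ± 0.192 CPM in dGcn5 libraries, 0.698 ± 0.472 CPM in the libraries labelled Elp3, 0.145 ± 0.170 CPM in those labelled nej and 3.57 ± 1.52 CPM in yellow libraries (SD, n = 3 each). Summed over the group and scaled by library size, its counts were 12.1% of those in yellow libraries for dGcn5, 19.1% for Elp3 and 4.12% for nej. The log2 fold change fitted by edgeR was -3.04 (standard error 0.58) for dGcn5, -2.39 (standard error 0.70) for Elp3 and -4.55 (standard error 0.99) for nej. Without yellow replicate 3 these values were -3.31, -2.69 and -4.87.

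CG4793 had 4, 5 and 7 counts in dGcn5 libraries, 17, 21 and 2 counts in the libraries labelled Elp3, and 1, 2 and 0 counts in those labelled nej, against 55, 91 and 22 counts in yellow libraries. The dGcn5 libraries and those labelled nej were far from the yellow libraries, while the libraries labelled Elp3 reached 0.964 CPM beside a lowest yellow library of 0.971 CPM. With DESeq2's size factors, or with total counts alone, these 2 groups overlapped. The spread in the libraries labelled Elp3 was wide, since replicates 1 and 2 held 0.909 and 0.964 CPM and replicate 3 held 0.0946 CPM. The means were 0.257 ± 0.0797 CPM in dGcn5 libraries, 0.656 ± 0.487 CPM in the libraries labelled Elp3, 0.0494 ± 0.0484 CPM in those labelled nej and 2.48 ± 1.52 CPM in yellow libraries (SD, n = 3 each). Fitted log2 fold changes were -3.25 (standard error 0.67) for dGcn5, -1.94 (standard error 0.86) for Elp3 and -5.50 (standard error 0.97) for nej. The 3 libraries labelled nej summed to 3 counts, which is 1.98% of the level in yellow libraries, with an exact 95% interval of 0.404% to 5.88% that covers counting error only.

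Sp212 had 2, 1 and 5 counts in dGcn5 libraries, 16, 14 and 18 counts in the libraries labelled Elp3 and 2, 0 and 9 counts in the libraries labelled nej, against 27, 24 and 27 counts in yellow libraries. It was the most even of the 3 picked genes in the yellow libraries, where yellow replicate 3 did not stand below the others. The libraries labelled Elp3 lay between, above all dGcn5 and nej libraries and below all yellow libraries. Sp212 averaged 0.130 ± 0.105 CPM in dGcn5 libraries, 0.783 ± 0.122 CPM in the libraries labelled Elp3, 0.177 ± 0.223 CPM in those labelled nej and 1.15 ± 0.0825 CPM in yellow libraries (SD, n = 3 each). For Sp212 the log2 fold change was -3.11 (standard error 0.65) for dGcn5, -0.57 (standard error 0.43) for Elp3 and -2.65 (standard error 0.97) for nej. Without nej replicate 3, which held 9 of the 11 counts of its group, the value for nej was -4.37. Without dGcn5 replicate 3, which held 5 of the 8 counts of its group, the value for dGcn5 was -3.91.

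**Figure D1:**
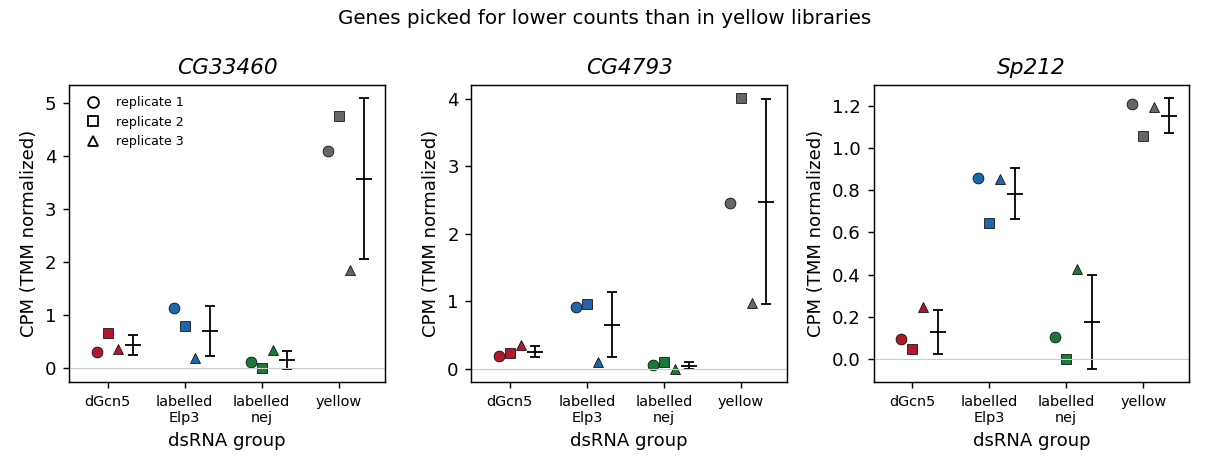
CPM after TMM normalization of CG33460, CG4793 and Sp212 in each library, by dsRNA group, with each replicate as a symbol and the mean and SD of 3 replicates as a bar. The yellow libraries lie highest in every panel, and Sp212 is at 0.783 CPM on average in the libraries labelled Elp3, against 1.15 CPM in yellow libraries.

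All 3 picked genes thus had each library of a group below each yellow library, in all 3 comparisons. Among all features tested, this held for 3.85% with dGcn5, 3.91% with Elp3 and 5.27% with nej, and since such low counts chose the genes, nothing is read from their number. The comparisons share their yellow libraries. Over the 9620 features tested in all 3 comparisons, 70 (0.728%) lay below yellow in each of them. The genes were low everywhere. In the dGcn5 libraries and in those labelled nej none of them exceeded 14 counts, and in the comparisons with these groups they passed the filter on low counts only through the yellow libraries. A library with 0 counts allows up to 3 counts, which is 0.145 CPM in nej replicate 2 and 0.142 CPM in nej replicate 3. In bulk RNA, fewer cells that transcribe a gene and less RNA per cell cannot be told apart.

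The Toll cascade genes were then examined in the same libraries. The protease encoded by modSP acts at the head of the branch that recognition proteins set off, and grass acts below it. Persephone, the product of psh, is cut by proteases of microbes and starts a second branch. SPE, the Spätzle-processing enzyme, receives both. Their exons overlap no other feature, except that SPE shares 107 bp with CG18754 on the same strand, so that its counts are uncertain.

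The counts of modSP (FBgn0051217, chromosome 3R from 16652446 to 16655662) were 1845, 1724 and 1992 in dGcn5 libraries, 1650, 1955 and 1984 in the libraries labelled Elp3 and 1510, 1237 and 1896 in those labelled nej, against 2221, 2021 and 2252 in yellow libraries. The groups overlapped in CPM in each comparison. The means were 89.0 ± 9.45 CPM in dGcn5 libraries, 90.6 ± 2.91 CPM in the libraries labelled Elp3, 75.8 ± 15.2 CPM in those labelled nej and 95.9 ± 5.97 CPM in yellow libraries (SD, n = 3 each). For modSP the log2 fold change was -0.11 (95% confidence interval -0.56 to 0.34) for dGcn5, -0.098 (-0.60 to 0.40) for Elp3 and -0.33 (-0.87 to 0.20) for nej. By the quasi-likelihood test of edgeR, Benjamini-Hochberg adjusted p-values over all features tested were 0.984 for dGcn5, 0.99997 for Elp3 and 0.968 for nej, so that modSP was not called.

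The counts of grass (FBgn0039494, chromosome 3R from 27157948 to 27159781) were 3215, 2906 and 1573 in dGcn5 libraries, 4048, 2197 and 1193 in the libraries labelled Elp3 and 1940, 330 and 1444 in those labelled nej, against 1636, 1212 and 3203 in yellow libraries. Replicates of the same group differed severalfold, with nej replicate 2 the lowest of the 12 libraries and Elp3 replicate 1 the highest. The means were 122 ± 40.0 CPM in dGcn5 libraries, 125 ± 82.6 CPM in the libraries labelled Elp3, 61.4 ± 42.3 CPM in those labelled nej and 89.3 ± 46.2 CPM in yellow libraries (SD, n = 3 each). The log2 fold change was 0.45 (95% confidence interval -0.53 to 1.44) for dGcn5, 0.43 (-0.84 to 1.70) for Elp3 and -0.53 (-2.02 to 0.96) for nej. These differences were smaller than the spread between replicates, and grass was not called by edgeR (Benjamini-Hochberg adjusted p = 0.984 for dGcn5, 0.99997 for Elp3 and 0.968 for nej). Without Elp3 replicate 1 the value for Elp3 was -0.16.

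The counts of psh (FBgn0030926, chromosome X from 18484487 to 18486921) were 3, 0 and 12 in dGcn5 libraries, 8, 5 and 10 in the libraries labelled Elp3 and 3, 0 and 6 in those labelled nej, against 5, 2 and 4 in yellow libraries. The libraries labelled Elp3 lay above all yellow libraries, at 0.377 ± 0.130 CPM against 0.163 ± 0.0687 CPM (SD, n = 3 each; exact two-sided permutation test, p = 0.1, which is the lowest p possible with groups of 3). The other groups overlapped with yellow, at 0.246 ± 0.309 CPM in dGcn5 libraries and 0.146 ± 0.143 CPM in the libraries labelled nej (SD, n = 3 each; exact two-sided permutation test, p = 0.9 for both). In the Elp3 comparison 4.44% of all features tested had every library above every yellow library. The share was 4.25% for dGcn5 and 4.47% for nej.

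The counts of SPE (FBgn0039102, chromosome 3R from 23686255 to 23688147) were 5, 3 and 4 in dGcn5 libraries, 9, 5 and 13 in the libraries labelled Elp3 and 5, 2 and 1 in those labelled nej, against 7, 3 and 9 in yellow libraries. The groups overlapped in each comparison. SPE averaged 0.192 ± 0.0516 CPM in dGcn5 libraries, 0.442 ± 0.196 CPM in the libraries labelled Elp3, 0.134 ± 0.109 CPM in those labelled nej and 0.281 ± 0.135 CPM in yellow libraries (SD, n = 3 each). The exact two-sided permutation test of the mean CPM gave p = 0.4 for dGcn5, p = 0.3 for Elp3 and p = 0.2 for nej. Neither SPE nor psh passed the filter on low counts, so that edgeR gave no test for them.

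**Figure D2:**
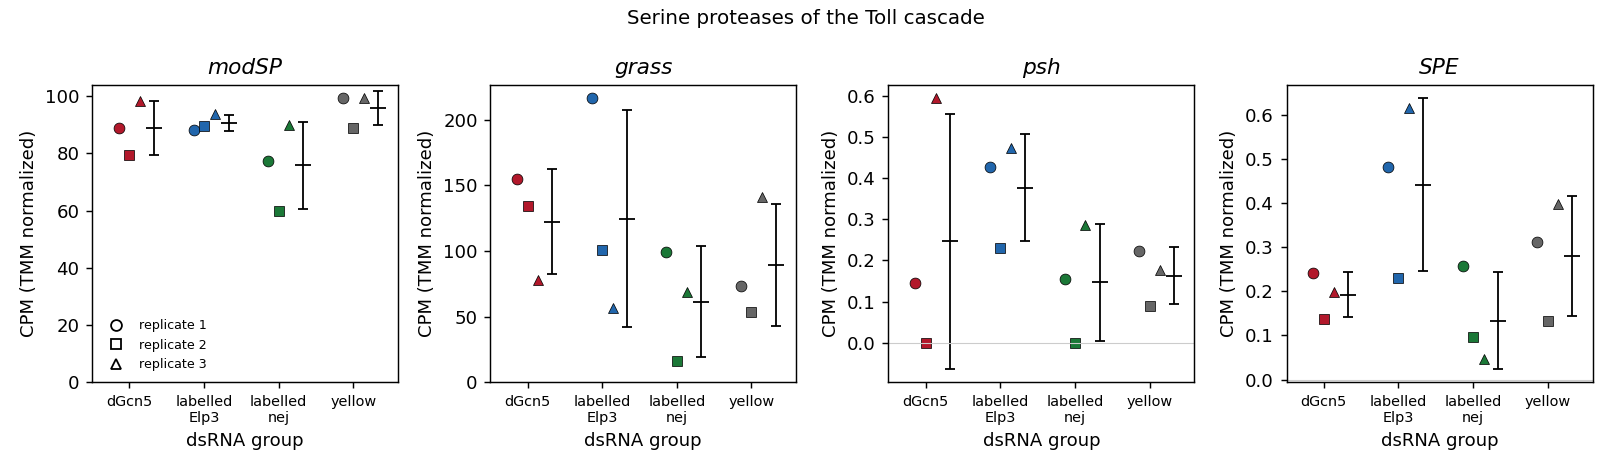
CPM after TMM normalization of modSP, grass, psh and SPE in each library, by dsRNA group, with replicates as symbols and the mean and SD of 3 replicates as a bar. The groups overlap in each panel, except that for psh the libraries labelled Elp3 lie above the yellow libraries.

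Across all features tested, the edgeR test after Benjamini-Hochberg adjustment called 0 of 9820 (0%) for dGcn5, 1 of 9915 (0.0101%) for Elp3, which was Elp3 itself, and 0 of 9816 (0%) for nej. The target Gcn5 was itself not called in dGcn5 libraries (log2 fold change -1.78, edgeR adjusted p = 0.421). Nor was nej in the libraries labelled nej (log2 fold change 3.25, edgeR adjusted p = 0.968). A gene that is not called can therefore still differ. At an unadjusted p under 0.05 there were 360, 383 and 358 features. DESeq2 called 42 for dGcn5, 23 for Elp3 and 44 for nej, and modSP and grass were not among them. With the replicate number as a block, edgeR called 2 genes for nej, SKIP and CG15347, though the labels state no pairing. Neither gene is a member, and they were named after their values were seen. To ask whether the dGcn5, Elp3 and nej groups differed among themselves without the yellow libraries, an F test was fitted to those 9 libraries. It called 1 of 10144 features (0.00986%), again Elp3, with 267 features at an unadjusted p under 0.05 and 23 called by DESeq2. In this test, modSP and grass both had a Benjamini-Hochberg adjusted p of 0.9997.

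Levels were compared between genes in RPKM, which divides by exon length. In yellow libraries the mean level was 64.2 RPKM for grass, 41.9 RPKM for modSP, 3.78 RPKM for CG33460, 0.875 RPKM for CG4793, 0.685 RPKM for Sp212, 0.222 RPKM for SPE and 0.0989 RPKM for psh. The ranges of grass and modSP overlapped, as did those of CG4793 and Sp212 and those of SPE and psh. The other neighbours in this order did not overlap. In dGcn5 libraries CG33460 averaged 0.451 RPKM and CG4793 0.0906 RPKM, and the range of CG4793 overlapped those of SPE and psh in the same libraries. Ranked by mean RPKM over 12 libraries among 260 genes of the table with a serine protease or homolog name in RefSeq, grass was at rank 4 and modSP at rank 10. CG33460 was at rank 56, Sp212 at 78, CG4793 at 79, SPE at 88 and psh at 99. The means of the 3 picked genes over 12 libraries, and so their ranks, rest largely on the yellow libraries. In all, 56 genes of the family had 0 counts in every library.

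The family, which was assembled by name after the data had been seen, gives the setting of the picked genes. Of its 260 genes, 78 were tested for dGcn5, 80 for Elp3 and 77 for nej, and 0 were called in each. In dGcn5 libraries 40 had a log2 fold change below 0 and 38 above 0, with a median of -0.04, against -0.03 over all features tested, and the median was 0.03 without the picked genes. For Elp3 the numbers were 41 and 39, with a median of -0.0094 against -0.015 over all features, and the median was 0.04 without the picked genes. For nej they were 56 and 21, with a median of -0.30 against 0.0065 over all features, and the median was -0.26 without the picked genes. Among the family genes tested, all libraries lay below all yellow libraries for 5 with dGcn5, 6 with Elp3 and 11 with nej, or 2, 3 and 8 without the picked genes, beside 3.85%, 3.91% and 5.27% of all features tested. Family genes under the filter are not in these counts. CG18477 and CG31780, with 135 counts each over all libraries and the same log2 fold changes, are both in them as separate genes. Why their values are the same was not tested.

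Of the 75 family genes tested in all 3 comparisons, 4 lay below yellow in each of them, beside 70 of 9620 features (0.728%). These were the 3 picked genes and CG9733, which is named here after its values were seen. Since low counts chose the 3 picked genes, nothing is read from the number. CG9733 (FBgn0039759) had 18, 8 and 12 counts in dGcn5 libraries, 30, 6 and 24 counts in the libraries labelled Elp3 and 7, 6 and 19 counts in those labelled nej, against 83, 63 and 67 counts in yellow libraries. Its lowest yellow library held 2.77 CPM and its highest other library 1.60 CPM. Its log2 fold change was -2.36 for dGcn5, -1.69 for Elp3 and -2.58 for nej.

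**Figure D3:**
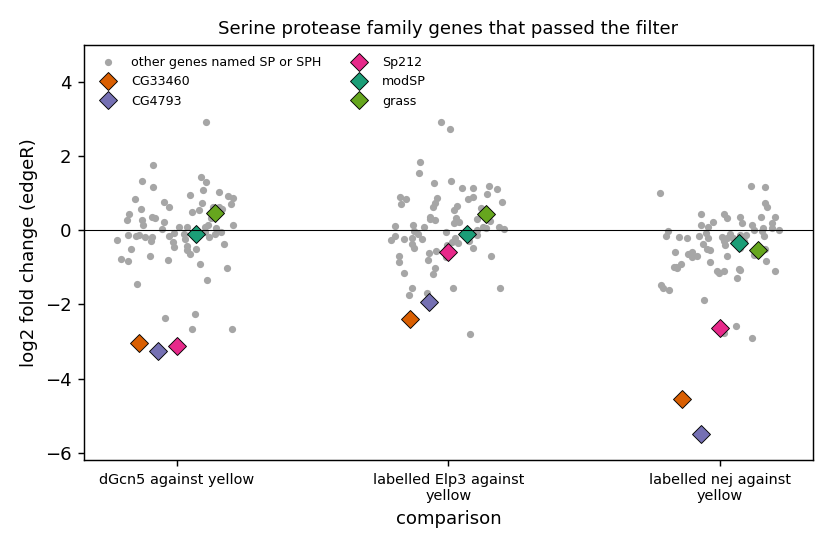
The log2 fold change fitted by edgeR for each serine protease family gene that passed the filter, against yellow in the dGcn5 libraries and in the libraries labelled Elp3 and nej. Each dot is a gene and the diamonds are the members. CG33460, CG4793 and Sp212 lie at -3.04, -3.25 and -3.11 for dGcn5, while modSP and grass lie near 0 at -0.11 and 0.45.

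A list of 30 further genes of the Toll pathway and of melanization (MP1, Sp7, PPO1 and PPO2) was set beside the members. The 30 genes ran from recognition proteins and serpins to the receptor and its NF-kB factors. Of these, 22 were tested for dGcn5, 22 for Elp3 and 23 for nej, and 0 were called higher or lower in each. The log2 fold change was below 0 for 12 and above 0 for 10 in dGcn5 libraries (median -0.21), for 14 and 8 in the libraries labelled Elp3 (median -0.13) and for 14 and 9 in those labelled nej (median -0.13). Among the genes tested, all dGcn5 libraries lay below all yellow libraries for 1 gene, Myd88 (3.85% of all features tested), and above them for 2 genes, pll and PGRP-SD (4.25%). Among those tested for Elp3 and for nej, 1 gene each lay wholly below yellow, GNBP1 and PGRP-SA (3.91% and 5.27% of all features tested). Of the genes under the filter for dGcn5 and Elp3, spirit and snk also lay below yellow in both, by few counts. For spirit there were 4 to 8 counts in dGcn5 libraries, 5 to 8 in those labelled Elp3 and 9 to 15 in yellow libraries. For snk there were 0 counts in both groups and 2 to 4 in yellow libraries. The share of such genes among all features under the filter was not computed, and nothing is read from these 2 genes.

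The lowest log2 fold change of the list in dGcn5 libraries was that of spz, the gene of the ligand Spätzle, at 67.5 ± 55.4 CPM in dGcn5 libraries and 133 ± 30.1 CPM in yellow libraries (SD, n = 3 each). For spz the value was -0.995 (95% confidence interval -2.24 to 0.25), and the groups overlapped. The highest was that of PGRP-SD, a peptidoglycan recognition protein, at 7.71 ± 4.04 CPM in dGcn5 libraries and 2.17 ± 0.495 CPM in yellow libraries (SD, n = 3 each). On the log2 scale PGRP-SD differed by 1.83 (95% confidence interval 0.60 to 3.06) and was not called by edgeR (Benjamini-Hochberg adjusted p = 0.984). The genes of the list with the highest mean CPM, which does not correct for length, were cact, whose product holds the NF-kB factors in the cytoplasm, Pli and Spn88Ea, a serpin. Their log2 fold changes for dGcn5 were -0.40, -0.25 and -0.66, and 0 of them were called.

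The picked genes were also compared with their neighbours within 10 kb, on the strand of the gene and on the other. CG33461 lies 154 bp beyond CG33460 on the same strand. It had 0, 0 and 3 counts in dGcn5 libraries, 1, 1 and 2 counts in the libraries labelled Elp3 and 0, 0 and 0 counts in those labelled nej, against 16, 11 and 3 counts in yellow libraries. Yellow replicates 1 and 2 were the only libraries above 3 counts, and the dGcn5 and yellow groups overlapped at replicate 3. It did not pass the filter. CG30087, which lies 341 bp before CG33460, had 1 to 9 counts in dGcn5 libraries, 3 to 4 in the libraries labelled Elp3, 2 to 9 in those labelled nej and 1 to 4 in yellow libraries. CG30088 had 2 to 20 counts per library, with overlapping groups. CG30090 had 7 to 12 counts in dGcn5 libraries, 7 to 14 in the libraries labelled Elp3, 9 to 19 in those labelled nej and 4 to 8 in yellow libraries. In CPM the libraries labelled Elp3 and those labelled nej lay above all yellow libraries, as for 4.44% and 4.47% of all features tested. The dGcn5 libraries overlapped with yellow. CG30090 did not pass the filter in these comparisons. CG33462 had 0 counts throughout, and the well expressed neighbour Impbeta11, an importin, had 1279 to 2156 counts.

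**Figure D4:**
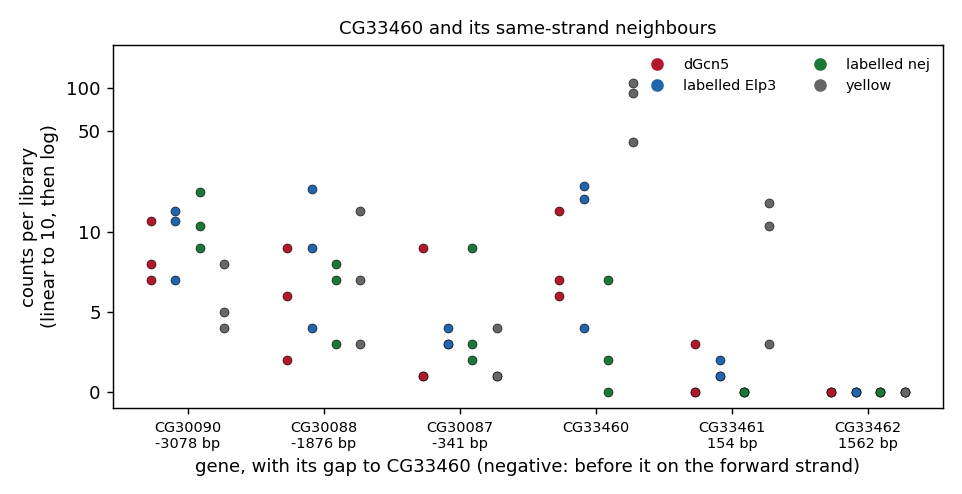
Counts per library of CG33460 and of 5 neighbours on the same strand, ordered by position, with the gap to CG33460 in bp under each name and dsRNA groups as colours. The vertical axis is linear up to 10 counts and logarithmic above. The yellow libraries stand above the others for CG33460 (42 to 108 counts), and yellow replicates 1 and 2 do so for CG33461 (16 and 11 counts).

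The neighbours of Sp212 were low. CG9624, 3863 bp from it, had 1, 0 and 6 counts in dGcn5 libraries, 1, 0 and 6 counts in the libraries labelled Elp3 and 0, 0 and 26 counts in those labelled nej, against 28, 4 and 46 counts in yellow libraries. CG9631, 943 bp from it, had 0, 1 and 6 counts in dGcn5 libraries, 5, 2 and 6 in the libraries labelled Elp3 and 1, 0 and 15 in those labelled nej, against 3, 1 and 24 in yellow libraries. In both genes replicate 3 was the highest of each group, and the groups overlapped. This was not the pattern of Sp212, in which yellow replicates 1 to 3 held 27, 24 and 27 counts. The neighbours of CG4793, beat-Ib and CG13244, had at most 11 counts in a library.

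The profile of each picked gene over the 12 libraries was then set against all 10368 features that passed the filter over all libraries, by Pearson correlation of log2 CPM. The points share libraries and depth, and the correlations are descriptions. A feature chosen for a high correlation tends to share the order of groups through that choice, so that nothing is read from a shared order. The features closest to CG33460 were CG5346 (r = 0.94), CG15347 (r = 0.90) and Npc2b (r = 0.90), whose family includes sterol-binding proteins. CG15347 averaged 147 ± 24.6 CPM in dGcn5 libraries, 188 ± 58.1 CPM in the libraries labelled Elp3, 69.1 ± 18.6 CPM in those labelled nej and 363 ± 53.7 CPM in yellow libraries (SD, n = 3 each), the same order of groups as CG33460 at a far higher level. CG4793 was closest to CG9143 (r = 0.91), CG33460 (r = 0.90) and CG1671 (r = 0.89). Sp212 was closest to vir-1 (r = 0.89), a gene known to be induced by viruses, CG30424 (r = 0.88) and lncRNA:CR45567 (r = 0.87). The gene vir-1 averaged 148 ± 18.8 CPM in dGcn5 libraries, 327 ± 112 CPM in the libraries labelled Elp3, 141 ± 83.2 CPM in those labelled nej and 409 ± 152 CPM in yellow libraries (SD, n = 3 each), with the libraries labelled Elp3 nearest to yellow as for Sp212. Among the members, the correlation was 0.76 for CG33460 with Sp212 and 0.65 for CG4793 with Sp212. These genes were all picked for low counts outside the yellow libraries, which favours such correlations, and nothing is read from them. For CG33460, CG4793 and Sp212 in this order, the correlation was 0.63, 0.42 and 0.76 with modSP and 0.36, 0.18 and 0.26 with grass. It was 0.11, 0.03 and 0.57 with psh and 0.18, 0.25 and 0.49 with SPE.

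Levels of hemocyte markers were set beside those of the picked genes. Of the 8 markers, 8 had a log2 fold change below 0 for dGcn5 (median -0.94), 8 for Elp3 (median -1.03) and 7 for nej (median -0.87). The groups did not overlap for He and NimC1 with dGcn5, for eater with Elp3, and for Pxn, NimC1 and eater with nej, beside 3.85%, 3.91% and 5.27% of all features tested, and 0 were called. The summed level of the markers ran from 943 to 4946 CPM in dGcn5 libraries, from 895 to 3819 CPM in the libraries labelled Elp3 and from 3015 to 3592 CPM in those labelled nej, against 2362 to 5906 CPM in yellow libraries, so that the sums overlapped. Hml made up most of this sum. It averaged 2792 CPM of a mean sum of 4559 CPM in yellow libraries, and 2218 of 3265 CPM in those labelled nej. The overlap of the sums thus mainly describes Hml, as do the correlations that follow. Across the 12 libraries, with both sides on the log2 scale, the correlation of this sum with CG33460 was 0.07, with CG4793 0.11 and with Sp212 0.20. These values hold for that scale only, and no correlation in CPM is given. In CPM, yellow replicates 1 and 2 were highest both in the marker sum (5906 and 5410) and in the sum of the picked genes (7.77 and 9.82). By contrast, dGcn5 replicate 3 had a marker sum of 4946 CPM and a picked sum of 0.939 CPM. For yellow replicate 3 they were 2362 and 4.02 CPM. Of the 3 fat body markers, Lsp1beta alone was tested and lay above yellow in each group, at 4.24 ± 0.457 CPM in dGcn5 libraries, 5.38 ± 2.13 CPM in the libraries labelled Elp3, 8.34 ± 2.50 CPM in those labelled nej and 1.37 ± 0.891 CPM in yellow libraries (SD, n = 3 each). All libraries of a group lay above all yellow libraries, as for 4.25%, 4.44% and 4.47% of all features tested, and edgeR did not call Lsp1beta. Fbp1 and Lsp2 had at most 10 counts in a library and lower means than in yellow in each of these groups. Of the 3 crystal cell markers, lz alone was tested, for nej only, with a log2 fold change of 2.07. All libraries labelled nej lay above all yellow libraries for lz, as for 4.47% of all features tested. Its means were 1.63 ± 1.24 CPM and 0.384 ± 0.0952 CPM (SD, n = 3 each). PPO1 and PPO2 had at most 7 counts in a library. The part of these markers in the levels of CG33460, CG4793 and Sp212 was not tested.

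**Figure D5:**
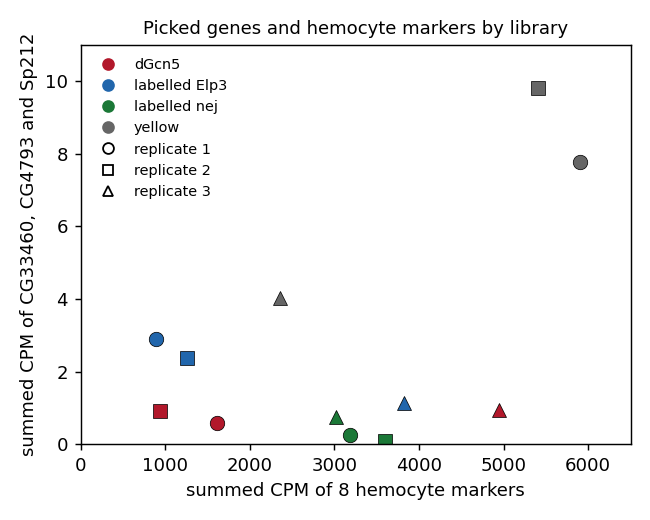
Summed CPM of CG33460, CG4793 and Sp212 against the summed CPM of 8 hemocyte markers, with 1 point per library, colours for dsRNA groups and symbols for replicates. Yellow libraries lie between 4.02 and 9.82 CPM on the vertical axis and all others at or below 2.89 CPM. The groups overlap on the horizontal axis, where Hml makes up most of the sum.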

How the data were processed

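Bulk RNA-seq was measured in 12 libraries, 3 replicates for each of 4 dsRNA groups taken from the labels. The authors trimmed reads, removed ribosomal RNA reads, aligned with STAR to BDGP6.32 and counted on exons with featureCounts. The deposited values are raw counts for each feature, as whole numbers. Libraries were stranded and their adapters carried molecular identifiers, but whether the counting used either is not given in the sources used here, so that counting intervals cover counting error only.

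Counts were tested with the quasi-likelihood test of edgeR 4.0.16 (R 4.3.3) with TMM normalization, a filter with a minimum count of 10 and Benjamini-Hochberg adjustment over all features tested, called under 0.05. Each comparison was fitted to its 6 libraries without covariates, and standard errors and 95% intervals were derived from the F statistic. CPM and RPKM used library sizes of the features passing the filter over 12 libraries, and log2 CPM a prior count of 2. Scripts were tested on simulated data. Alternatives were DESeq2 1.42.0, its size factors, other filters, all 12 libraries, the replicate block, an exon length correction and leaving out each library, and the newer edgeR method and total counts alone, which were chosen after seeing the data.

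The members and lists were chosen with earlier results of these data known. Named genes are the members, the targets, the lowest, the highest and the 3 most abundant Toll pathway genes, neighbours within 10 kb, the 3 closest profiles of each picked gene and the cell type markers. A family rule based on a protein motif was replaced by names in RefSeq. Of 262 genes with such a name, 260 were kept, after skd was left out by hand and the rest were matched to the count table. The rule goes by name alone, so that some of the 260 may not encode serine proteases or their homologs. Gene coordinates are those of the count table, and the exons of the members are the same in the Ensembl annotation used for protein lengths. Deviations of same-numbered libraries from their group means correlated at 0.14, 0.47 and 0.63 between nej and yellow. They correlated at -0.12, 0.20 and -0.01 for dGcn5 and at -0.64, 0.72 and -0.10 for Elp3. These values do not establish pairing. Libraries of unlike number reached 0.21 (nej replicate 1 with yellow replicate 2) and 0.63 (Elp3 replicate 1 with yellow replicate 3).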

Additional observations from a re-analysis of the deposited data

How the results depend on the processing

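The log2 fold changes of CG33460, CG4793 and Sp212 were below 0 in 127 of 127 alternative fits, a sign that their selection on these libraries fixes and that is no evidence of stability, and modSP and grass were called in none of theirs. Calls depended on the tool. DESeq2 called 42 for dGcn5, 23 for Elp3, 44 for nej and 23 among dGcn5, Elp3 and nej, where edgeR called 0, 1, 0 and 1. For Elp3 the count was 0 with the replicate block and with the exon length correction together with the replicate block, and 0 to 1 with a library left out, being 0 without Elp3 replicate 3 or any yellow replicate. For nej it was 1 with all 12 libraries in a single fit (CG15347) and 2 with the replicate block. The block changed no call of a member. The samples of dGcn5, Elp3 and nej share only a replicate number with those of yellow, and the count for dGcn5 with the block was 0. With a library left out, the log2 fold change ran from -0.18 to 0.0056 for modSP with dGcn5 and from -0.16 to 0.94 for grass with Elp3, and the log2 ratio of mean CPM from -1.17 to 1.18 for psh with dGcn5 and from -1.08 to 0.43 for psh with nej. Why these values moved was not tested. The low counts limit precision: CG33460, CG4793 and Sp212 had at most 21 counts outside the yellow libraries, and psh and SPE at most 13 in any library. In the nej fits, leaving out nej replicate 3 gave -6.00 for CG33460 and -4.37 for Sp212, and leaving out nej replicate 2 gave -6.34 for CG4793.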
